A study of Mus musculus with 38 samples.

Results

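The 10 genes described here, Cdc20, Fzr1, Pttg1, Mad2l1, Bub1, Bub1b, Bub3, Ttk, Fbxo5 and Fbxo43, set when chromosomes separate. They were taken by gene symbol from a table of 23125 genes, and every symbol had 1 row. The list was selected on measured values in part: Cdc20 was chosen by its polysome values in M-phase against interphase, and Pttg1 by its polysome values in MII oocytes against zygotes in M-phase. No test is therefore given of any comparison that holds a polysome value of Cdc20, or the polysome values of Pttg1 in MII or zygote M, while the other 8 genes complete the pathway by their known role.

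The libraries came from wild-type ICR mice, with females at least 6 weeks old. Germinal vesicle (GV) oocytes, arrested in meiotic prophase, were isolated after hormonal stimulation in a medium that holds the arrest, and MII oocytes, arrested in the second meiotic metaphase, were obtained after 12 h in culture. Zygotes and two-cell embryos came from females given the same stimulation and hCG and then mated. Interphase zygotes were collected at isolation, and later embryos after culture in KSOM medium. The embryos collected in M-phase (zygote M and two-cell M) had been treated with 10 µM nocodazole, whereas MII oocytes had not. Nocodazole is a microtubule poison that itself turns on the spindle checkpoint. Mitosis and the drug therefore cannot be told apart in either embryonic comparison, nor can mitosis and culture in the zygote. The study describes cycloheximide treatment before lysis. Lysates were spun through sucrose gradients of 10 fractions, of which the 5 lighter were pooled as non-polysome RNA and the 5 heavier as polysome RNA, the mRNAs loaded with several ribosomes. Each of the 6 stages and 2 fractions had 3 libraries, 36 in all, called biological triplicates. The labels name no separate litter or day, and the zygote libraries used are those lettered B, C and D where the other stages have A, B and C, and zygote A of either fraction was not analysed here.

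In dividing cells the anaphase-promoting complex (APC/C) marks proteins for destruction. Its activator Cdc20 directs it to securin (Pttg1) and cyclin B in metaphase, and the loss of securin frees separase, which cuts cohesin. A second activator, Cdh1, made from Fzr1, works from late mitosis into interphase and in the arrested GV oocyte. When chromosomes are not attached, the kinases Ttk (Mps1) and Bub1 help assemble a complex in which Mad2 (Mad2l1), BubR1 (Bub1b) and Bub3 hold Cdc20. Fbxo5 (Emi1) and Fbxo43 (Emi2) inhibit the APC/C, and Emi2 keeps the MII oocyte in metaphase until fertilization. Oocytes and early zygotes make little or no new RNA, so the loading of stored mRNAs onto ribosomes is a main way in which these proteins are renewed.

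Stored oocyte mRNAs are often switched on by lengthening of their poly(A) tails, which depends on a cytoplasmic polyadenylation element (CPE) close to the AATAAA or ATTAAA signal. The last 100 bases of the annotated transcript of each gene, or its whole 3′ UTR where that is shorter, were searched on the RNA strand alone for TTTTAT and TTTTAAT. Matches may overlap each other. Of the 10 genes, 3 held a match, Cdc20 with 2, Bub1b with 2 and Fbxo5 with 1, against 18.9% of 6247 tested protein-coding genes with an annotated 3′ UTR. The AATAAA or ATTAAA signal stood in the last 50 bases of 79.1% of those genes, and both motifs in 15.7%. Of the 10 genes, Fzr1 and Mad2l1 lacked the signal there, so a match near a signal could not be judged at their annotated ends. Sequences are of GRCm38 with GENCODE annotation, printed in the RNA sense, in lower case with both motifs in capitals. Cdc20 lies on the minus strand (chr4:118432917-118432946), Bub1b on the plus strand (chr2:118641547-118641576) and Pttg1 on the minus strand (chr11:43420283-43420312), and the third is shown because its mRNA has the highest mean level of the 10 over all libraries and its changes part from those of Cdc20.
Cdc20: tcttgtTTTTATTTTATtttttctAATAAA
Bub1b: ctctcctttcactgtgtaTTTTATAATAAA
Pttg1: tagtttctgtatgtatgttgtattAATAAA
In Cdc20 the nearer of the 2 overlapping matches began 13 bases before the signal, and in Bub1b 6 bases before it. Pttg1 held the signal and no match in its 3′ UTR of 55 bases. The match of Fbxo5, not shown, began 67 bases before the last signal. In polysomes of MII against GV, Cdc20 and Bub1b stood higher and Fbxo5 lower (log2 -0.93), all 3 with a match. Of the genes without one, Pttg1 stood lower, and Mad2l1 (2.46) and Fbxo43 (1.93) among others higher. Tests of these differences, where given, made no call. A match is a string of letters and was not tested for function, nor was its relation to these changes.

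Values are FPKM, fragments per kilobase of transcript scaled to the mapped fragments of each library, which allow levels of different genes to be set side by side. FPKM are scaled within each library, so a ratio of polysome to non-polysome values is relative to the other genes of the same fractions and is no share of molecules, and fewer cells and less RNA per cell cannot be told apart. The smallest value in every library was 0.01, and sums of FPKM ran from 88982 to 247361 per library. The number of sequenced fragments is unknown. Between 5140 and 10525 genes exceeded 0.1 FPKM per library, with the fewest in the non-polysome libraries of two-cell M. Oocyte genes (Zp2, Zp3, Gdf9, Bmp15, Ooep and Nlrp5) summed to between 3828 and 5016 FPKM in GV polysomes. All 7 cumulus and granulosa cell markers found in the table summed to at most 0.187 there and to between 0.873 and 4.73 in MII polysomes, whereas haemoglobin genes summed to between 34.3 and 83.7 FPKM in two-cell polysomes against 0.04 in GV and MII polysomes.

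A gene was called when its fold change passed 2 and its adjusted p was under 0.05, by limma over 7967 genes whose geometric mean reached 0.1 FPKM. Of the 10 genes, 9 were tested. Bub1 was at the smallest value in 10 libraries and had a geometric mean of 0.0982 FPKM, so it is given by its values alone.

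Cdc20 was at 4.77, 5.85 and 4.48 FPKM in the polysomes of GV oocytes and at 130, 136 and 157 in those of MII oocytes. In zygotes it was at 2.02, 3.37 and 1.65 FPKM, and in zygotes in M-phase at 214, 111 and 172. In two-cell embryos it was at 23.0, 35.9 and 23.4 FPKM, and in two-cell M at 82.9, 56.8 and 74.3. Each M-phase group lay above its interphase group with no overlap. The fold differences were 28.1 (log2 4.81 ± 0.36, SE) in the oocyte, 71.4 (6.16 ± 0.36) in the zygote and 2.63 (1.39 ± 0.36) in the two-cell embryo, and since these values chose the gene they carry no test.

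The order of the polysome level of Cdc20 ran from zygote M (166 ± 51.5 FPKM, SD, n = 3) and MII (141 ± 14.2) through two-cell M (71.4 ± 13.3) and two-cell (27.4 ± 7.32) to GV (5.03 ± 0.723) and zygote (2.35 ± 0.903). The values of the first neighbours, zygote M and MII, overlapped, with a log2 difference of -0.19 between MII and zygote M. No other neighbours in this order overlapped. MII lay above two-cell M by 1.99-fold, two-cell above GV by 5.37-fold and GV above zygote by 2.23-fold.

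**Figure D1:**
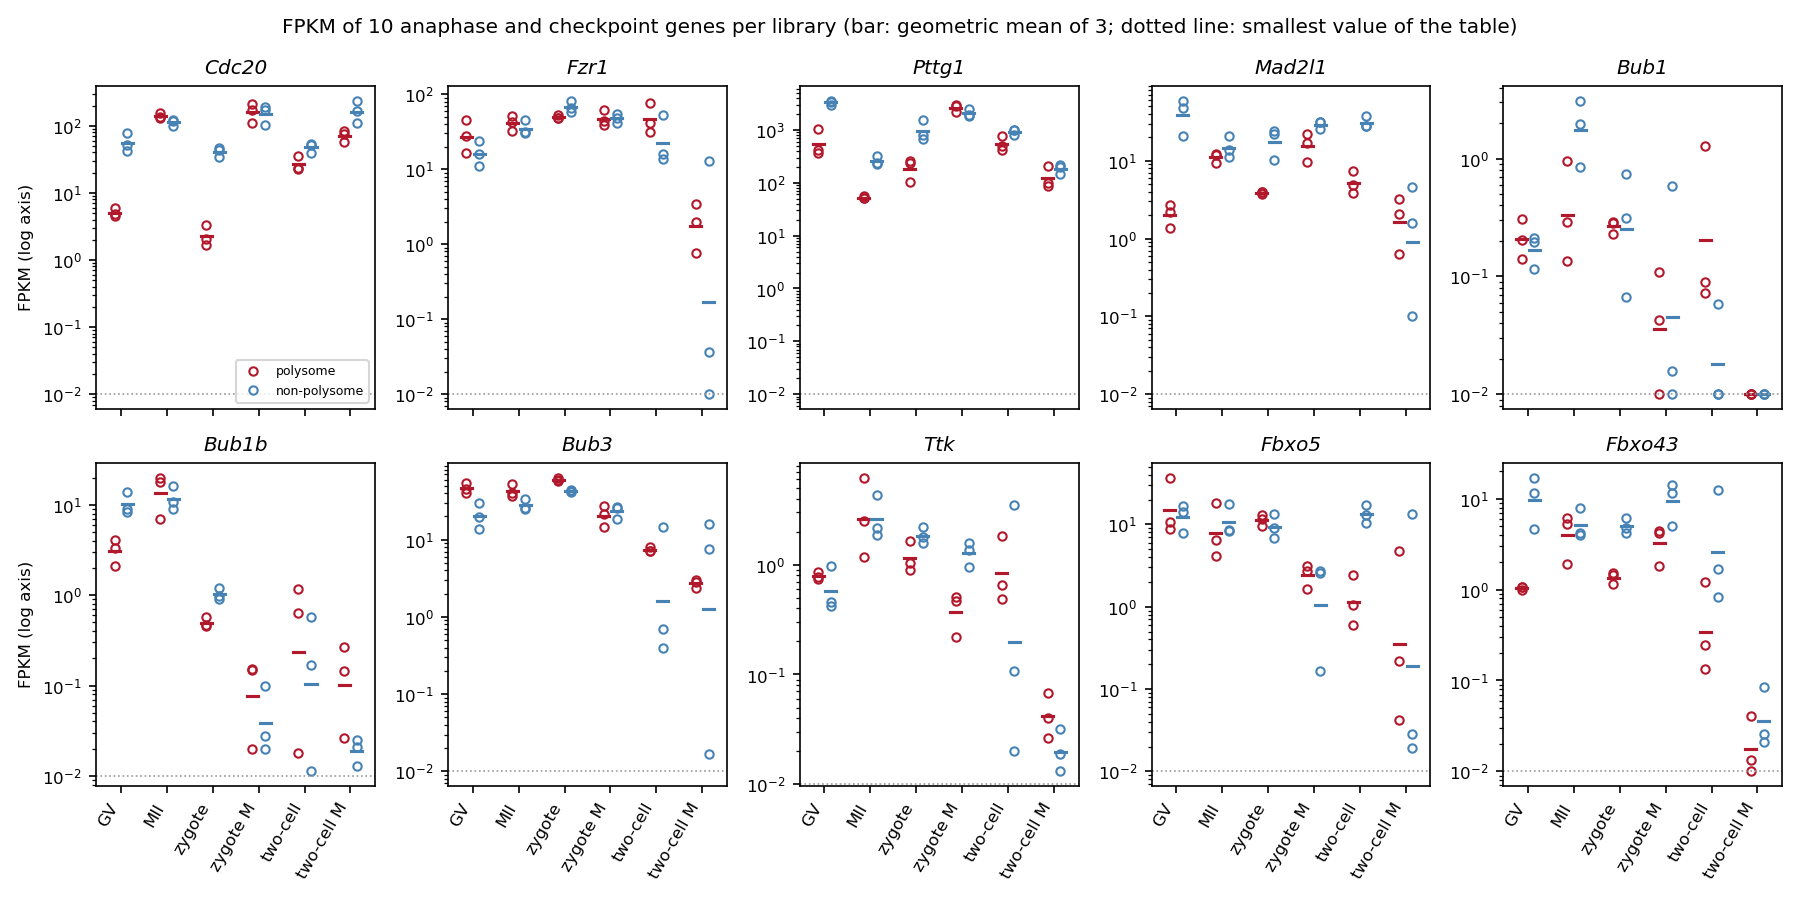
FPKM of each gene (log axis) in every polysome (red) and non-polysome (blue) library over the 6 stages, with a bar at the geometric mean of 3 libraries and a dotted line at the smallest value of the table, 0.01. In polysomes Cdc20 moves up in each M-phase, from 4.48 to 5.85 FPKM in GV up to 130 to 157 in MII, while Pttg1 is highest in zygote M and lowest in MII.

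In the non-polysome fraction, which did not choose the gene, Cdc20 could be tested. There it was at 77.3, 51.4 and 42.6 FPKM in GV and at 100, 117 and 121 in MII. The log2 fold change was 1.02 ± 0.36 (limma adjusted p = 0.0504), not called here but called in a fit of these groups alone (limma adjusted p = 0.0350). With that fit included, it was called in 4 of the other 8 settings, and in 1 of the 6 fits without 1 library. In zygotes it was at 34.0, 47.2 and 43.0 FPKM and in zygote M at 189, 102 and 171, which was a rise of 3.63-fold (log2 1.86 ± 0.36, limma adjusted p = 0.000937). In two-cell embryos it was at 39.0, 53.8 and 51.9 FPKM and in two-cell M at 237, 167 and 109, a rise of 3.41-fold (log2 1.77 ± 0.36, limma adjusted p = 0.000303). Both rises were called again when each library was left out in turn and in the other 8 settings of the fit. The study reported total Cdc20 mRNA at an equal level in oocytes and embryos, except between two-cell M and two-cell. FPKM are relative to the other genes of each library, so a rise in both fractions is no measure of the amount of Cdc20 mRNA.

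Within a gradient, Cdc20 was lower in polysomes than in lighter fractions in GV oocytes and zygotes. The polysome to non-polysome ratio of the 3 GV gradients lay between 0.0617 and 0.114, and that of the zygote gradients between 0.0384 and 0.0714. In MII the ratio lay between 1.16 and 1.30 and in zygote M between 1.01 and 1.13. In the two-cell embryo it was below 1 in interphase (0.451 to 0.668) and also in M-phase (0.340 to 0.680). The polysome side of these ratios holds the values that chose the gene, so they are a description. The fractions overlapped in zygote M alone, and MII was the only stage where every polysome value lay above every non-polysome value.

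**Figure D2:**
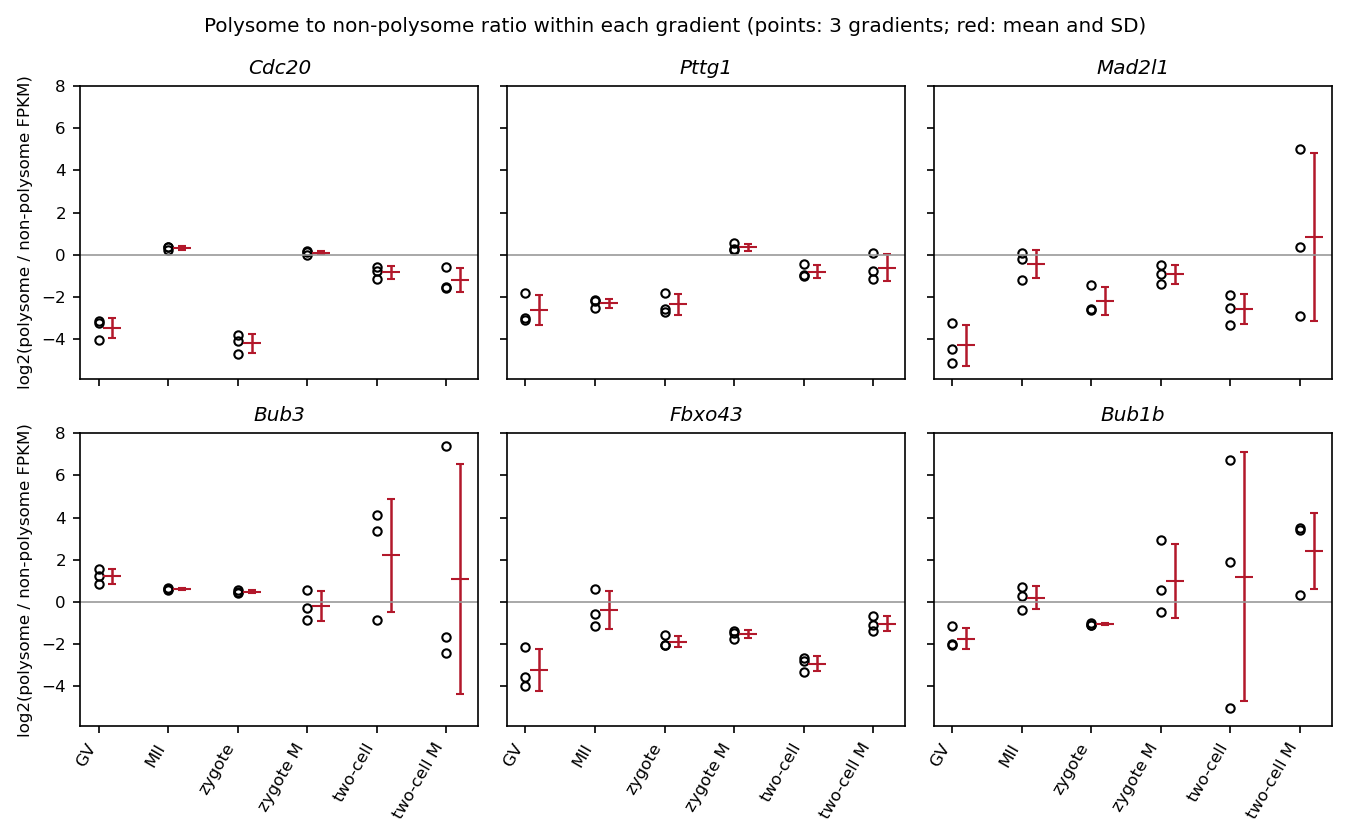
Log2 ratio of polysome to non-polysome FPKM in each of the 3 gradients per stage (circles), with the mean and SD in red, for 6 of the genes. The ratio of Cdc20 is between -4.70 and -3.14 in GV and zygote gradients and close to 0 in MII and zygote M, while that of Pttg1 is 0.35 on average in zygote M and -2.29 in MII.

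Pttg1, which encodes securin, had the highest geometric mean of the 10 mRNAs over all libraries, 500.5 FPKM, although in MII polysomes it stood below Cdc20. In polysomes it was at 408, 1028 and 367 FPKM in GV and at 51.0, 55.1 and 51.4 in MII, 10.2-fold lower (log2 -3.35 ± 0.37). In zygotes it was at 259, 105 and 232 FPKM and in zygote M at 2939, 2166 and 2846, 14.2-fold higher (log2 3.83 ± 0.37). Neither pair overlapped, and MII lay 50.1-fold below zygote M (log2 -5.65), the difference that chose the gene, so these values carry no test. In two-cell embryos, whose values did not choose it, Pttg1 was at 495, 754 and 415 FPKM and in two-cell M at 86.0, 99.0 and 206, a fall of 4.46-fold (log2 -2.16 ± 0.37, limma adjusted p = 5.1e-05). That call was made again without each library and in the other 8 settings.

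Pttg1 also fell from GV to MII in the non-polysome fraction, where it was at 3415, 3569 and 2944 FPKM in GV and at 233, 319 and 229 in MII (log2 -3.68 ± 0.37, limma adjusted p = 1.52e-07). In the zygote the non-polysome values were 1532, 674 and 805 FPKM in interphase and 2436, 1836 and 1948 in M-phase, and the rise of 2.19-fold (log2 1.13 ± 0.37) passed the test narrowly (limma adjusted p = 0.0474). That call was lost without the zygote libraries C or D or without any zygote M library, with log2 fold changes from 0.89 to 1.21 and limma adjusted p from 0.0684 to 0.233, with quantile normalization (0.36, limma adjusted p = 0.536) and in a fit of these groups alone (limma adjusted p = 0.0808). It was also lost with no minimum level and with the replicate letter as a block (1.21, limma adjusted p = 0.0501). In the two-cell embryo Pttg1 fell from 991, 1012 and 804 FPKM to 145, 218 and 194 (log2 -2.35 ± 0.37, limma adjusted p = 1.04e-05).

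The polysome to non-polysome ratio of Pttg1 moved from between 0.155 and 0.289 in zygotes to between 1.18 and 1.46 in zygote M. In the oocyte it ran from 0.119 to 0.288 in GV and from 0.173 to 0.225 in MII. Pttg1 stood lower in polysomes than in the non-polysome fraction in GV (log2 -2.62 ± 0.37, limma adjusted p = 5.33e-05) and in zygotes (-2.35 ± 0.37, limma adjusted p = 0.000188), and the MII and zygote M ratios carry no test. The change in polysomes less that in the non-polysome fraction, given without a test for both genes in the oocyte and zygote, was 0.33 ± 0.52 and 2.70 ± 0.52 for Pttg1 and 3.79 ± 0.51 and 4.30 ± 0.51 for Cdc20. In the two-cell embryo it was -0.38 ± 0.51 for Cdc20, also without a test, and 0.19 ± 0.52 for Pttg1 (limma adjusted p = 0.897).

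In polysomes the other genes were tested for M-phase against interphase at each stage. In MII against GV limma called 0 of the 7 genes with a test beside 6.11% of all tested genes, and 2 had an unadjusted p under 0.05. In zygote M against zygote it was 0 of 7 beside 5.75%, again with 2 under 0.05 unadjusted. In two-cell M against two-cell 4 of 8 were called, all lower, beside 36.3%. The median log2 fold change of all tested genes was 0.18, -0.43 and -1.17 in these comparisons, so a fall in the two-cell embryo was common to many genes. Of all genes called there, 648 were higher and 2242 lower, which became 1482 and 1490 after quantile normalization, when the median was 0.22. A fit of only the libraries of the groups compared called 13 rather than 4 of the 22, with 3 in MII against GV (Mad2l1, Bub1b and Fbxo43), 6 in zygote M against zygote and the same 4 in the two-cell embryo. The shares of all tested genes above are those of the fit of all groups, and none is given for these fits. The 13 therefore cannot be set against a share of all genes. The same holds for each call below from a fit of the compared groups alone.

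**Figure D3:**
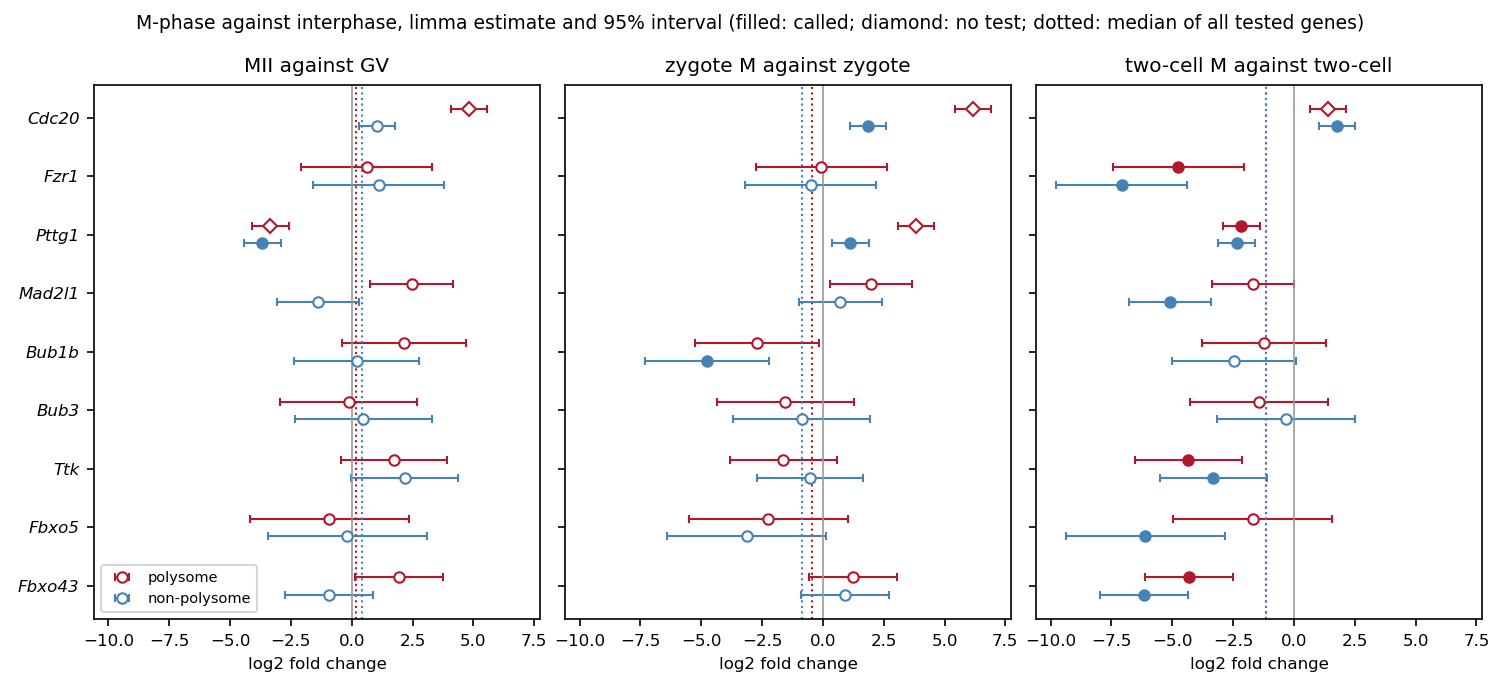
Log2 fold change of M-phase against interphase with its 95% interval for the 9 tested genes, in polysomes (red) and the non-polysome fraction (blue). Filled points were called, diamonds carry no test, and dotted lines mark the median of all tested genes, which was -1.17 (polysomes) and -1.14 (non-polysome) for the two-cell embryo.

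Mad2l1, which encodes the checkpoint protein Mad2, had polysome values of 1.36, 2.69 and 2.21 FPKM in GV and 9.25, 11.9 and 12.1 in MII, with no overlap. In zygotes they were 3.95, 3.73 and 3.91 FPKM, and in zygote M 16.8, 9.72 and 22.1, again with no overlap. The log2 fold changes of 2.46 ± 0.83 (limma adjusted p = 0.0776) and 1.99 ± 0.83 (limma adjusted p = 0.195) were not called in the fit of all groups, and were called in fits of each pair of groups alone (limma adjusted p = 0.00483 and 0.00450). Of the other 8 settings, those fits included, 4 called the first and 3 the second. In two-cell M it was at 3.26, 2.09 and 0.626 FPKM, below the 7.41, 3.83 and 4.85 of two-cell polysomes, a difference that did not pass the test either (log2 -1.67 ± 0.83, limma adjusted p = 0.116). Mad2l1 was 19.4-fold lower in polysomes than in lighter fractions of GV oocytes, where the latter held 47.8, 59.2 and 20.7 FPKM (log2 -4.28 ± 0.83, limma adjusted p = 0.00197).

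Bub1b, which encodes BubR1, had its highest values in oocytes. Its polysome values were 2.13, 3.33 and 4.10 FPKM in GV and 20.0, 17.7 and 6.94 in MII, which did not overlap (log2 2.13 ± 1.25, limma adjusted p = 0.395, and 0.0223 in a fit of these groups alone). In zygotes they were 0.467, 0.452 and 0.571 FPKM and in zygote M 0.147, 0.0198 and 0.151, lower without overlap (log2 -2.70 ± 1.25, limma adjusted p = 0.268, and 0.0489 in a fit of these groups alone). MII polysomes stood above those of zygote M by 7.47 ± 1.25 on the log2 scale (limma adjusted p = 0.000104) and above those of two-cell M by 7.07 ± 1.25 (limma adjusted p = 3.59e-05). In the non-polysome fraction Bub1b fell from 0.982, 0.90 and 1.21 FPKM in zygotes to 0.10, 0.0279 and 0.0197 in zygote M (log2 -4.75 ± 1.25, limma adjusted p = 0.0133). The size of that change rests on values near the smallest of the table, and the call was lost with 1 FPKM added (-0.95, below the minimum fold), with quantile normalization (limma adjusted p = 0.0826) and without zygote library D (log2 -4.63, limma adjusted p = 0.0524).

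Bub3, the partner of Bub1 and BubR1 at the kinetochore, had its highest polysome values in oocytes and zygotes. It was at 45.7, 40.5 and 53.5 FPKM in GV polysomes, 40.3, 36.5 and 52.0 in MII and 59.3, 57.0 and 63.0 in zygotes. It was at 21.2, 14.7 and 27.2 FPKM in zygote M, 7.99, 7.06 and 7.06 in two-cell embryos and 2.82, 3.01 and 2.35 in two-cell M. Both M-phase groups of the embryo lay below their interphase groups with no overlap, but neither difference was called (log2 -1.55 ± 1.38 and -1.44 ± 1.38, limma adjusted p = 0.724 and 0.437). The zygote difference was called in a fit of these groups alone (limma adjusted p = 0.00431), while MII stood above two-cell M (log2 3.97 ± 1.38, limma adjusted p = 0.0172). Its non-polysome values scattered widely in the two-cell embryo, from 0.398 to 14.6 FPKM, and in two-cell M from 0.017 to 16.2.

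The kinase mRNAs were scarce. Ttk was between 0.741 and 0.868 FPKM in GV polysomes and at 6.20, 2.52 and 1.17 in MII, above GV without overlap (log2 1.74 ± 1.07, limma adjusted p = 0.424). It was at 0.897, 1.65 and 1.04 FPKM in zygotes and at 0.510, 0.220 and 0.468 in zygote M, below them without overlap (-1.63 ± 1.07, limma adjusted p = 0.536, and 0.0341 in a fit of these groups alone). It was at 1.83, 0.655 and 0.489 FPKM in two-cell polysomes and at 0.0400, 0.0266 and 0.0673 in two-cell M, a fall that was called (log2 -4.33 ± 1.07, limma adjusted p = 0.00233). In the non-polysome fraction Bub1 was highest in MII, at 1.96, 3.10 and 0.856 FPKM. In polysomes it was at 0.963, 0.288 and 0.134 FPKM in MII and at 1.28, 0.0905 and 0.0730 in two-cell embryos, which overlapped. All 6 two-cell M libraries listed it at 0.01.

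Fzr1, the source of the activator Cdh1, fell in polysomes in the second mitosis. It was at 44.9, 27.5 and 16.4 FPKM in GV polysomes, 51.5, 42.4 and 32.7 in MII, 48.3, 52.3 and 48.1 in zygotes and 39.2, 61.6 and 44.3 in zygote M. In two-cell embryos it was at 41.0, 77.6 and 31.7 FPKM and in two-cell M at 0.771, 3.43 and 1.97, which was 26.9-fold lower (log2 -4.75 ± 1.31, limma adjusted p = 0.0058). This call was made without each library in turn and in the other 8 settings. The change from GV to MII was 0.61 ± 1.31 and from zygote to zygote M -0.06 ± 1.31, with 95% intervals from -2.08 to 3.29 and from -2.75 to 2.62 that leave room for changes of over 2-fold in either direction. Their SE is pooled over all groups, and the SD of log2 Fzr1 was 5.51 in two-cell M non-polysome libraries. It was 0.068 in zygote and 0.337 in zygote M polysomes. The zygote change ran from -0.25 to 0.076 without 1 library. Fits of these groups alone called neither change (limma adjusted p = 0.309 and 0.818).

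Fbxo43, which encodes Emi2, was at 0.995, 1.06 and 1.07 FPKM in GV polysomes and at 5.33, 6.10 and 1.92 in MII, the stage at which Emi2 acts. The groups did not overlap, yet the log2 fold change of 1.93 ± 0.88 did not pass the test (limma adjusted p = 0.235, and 0.0348 in a fit of these groups alone). Zygotes held 1.15, 1.51 and 1.44 FPKM and zygote M 4.47, 1.80 and 4.25, again without overlap (1.26 ± 0.88, limma adjusted p = 0.578, and 0.0498 in a fit of these groups alone). It fell from 0.135, 1.23 and 0.247 FPKM in two-cell polysomes to 0.0135, 0.01 and 0.0404 in two-cell M (log2 -4.29 ± 0.88, limma adjusted p = 0.000416). The falls of Fbxo43 and Ttk in the two-cell embryo rest on values near the smallest of the table. Both calls were lost with 1 FPKM added (log2 -0.52 and -0.87, limma adjusted p = 0.494 and 0.1) and with quantile normalization (-1.22 and -1.61, limma adjusted p = 0.3 and 0.163). Fbxo5 was at 8.71, 10.6 and 36.8 FPKM in GV polysomes and at 18.3, 6.54 and 4.13 in MII, which overlapped (log2 -0.93 ± 1.59, limma adjusted p = 0.84). In zygotes it was at 9.69, 13.2 and 11.5 FPKM and in zygote M at 3.16, 1.66 and 2.68, which did not overlap and did not pass the test in the fit of all groups (log2 -2.24 ± 1.59, limma adjusted p = 0.589). A fit of the zygote groups alone called it (limma adjusted p = 0.00225). In two-cell polysomes it was at 1.05, 0.603 and 2.42 FPKM and in two-cell M at 4.79, 0.0423 and 0.220, with overlap.

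Marker genes moved in the oocyte and zygote comparisons. In polysomes the 6 oocyte markers summed to between 3828 and 5016 FPKM in GV against 922 to 1064 in MII, and to between 1584 and 1849 in zygotes against 329 to 564 in zygote M, with 1 of 6, Ooep, called lower in both. In the non-polysome fraction they went from between 3378 and 4812 FPKM in GV to between 1599 and 2012 in MII (Ooep called lower), and from between 2202 and 2405 in zygotes to between 366 and 517 in zygote M (Zp3 and Ooep called lower). Granulosa markers summed to at most 0.198 FPKM in the non-polysome fraction of GV and to between 0.138 and 23.6 in that of MII, where 4 of the 7 were at the smallest value in all libraries, and to at most 0.840 in all zygote and zygote M libraries. Haemoglobin genes summed to at most 1.33 FPKM and sperm markers to at most 5.87 in any oocyte or zygote library. The two-cell markers summed to at most 54.9 FPKM in any of these libraries. Non-polysome libraries held between 10381 and 10525 genes above 0.1 FPKM in zygotes and between 7455 and 8072 in zygote M, and polysome libraries between 10271 and 10361 and between 8797 and 9543. The part of these shifts in the changes of the 10 genes was not tested.

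In the two-cell embryo other genes moved with the falls. The 6 oocyte markers summed to between 462 and 517 FPKM in two-cell polysomes and between 34.1 and 133 in two-cell M, and all 6 were above 1 FPKM in at least 1 two-cell M library. Of these 6, 3 were called lower, with a median log2 fold change of -2.46 beside -1.17 for all tested genes. The 4 two-cell markers summed to between 53.8 and 88.3 FPKM and to between 8.48 and 64.6, and of the 3 tested Zscan4c was called lower (log2 -6.32 ± 1.86, limma adjusted p = 0.00926), with a median of -3.28. The 2 sperm markers in the table summed to between 1.95 and 6.31 FPKM in two-cell polysomes and to 0.02 in two-cell M, where both were at the smallest value in all libraries, and Prm2, a protamine and the 1 tested, was called lower (log2 -8.44 ± 0.63, limma adjusted p = 5.9e-11). Haemoglobin genes summed to between 34.3 and 83.7 FPKM in two-cell polysomes and between 24.4 and 42.5 in two-cell M, and Hbb-bs and Hbb-bt were below 0.1 FPKM on average in both. Granulosa markers summed to at most 1.01 FPKM in two-cell polysomes and to between 4.43 and 15.6 in two-cell M, with Foxl2, Fshr and Inha at 0.01 in all 3 and Amhr2 at 7.26 ± 4.62. Polysome libraries held between 8383 and 9066 genes above 0.1 FPKM in two-cell embryos and between 6261 and 7550 in two-cell M. The part of these shifts in the changes of the 10 genes was not tested.

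In the non-polysome fraction 1 of 9 tested genes was called in MII against GV, beside 16.6% of all genes, 3 of 9 in zygote M against zygote, beside 10.4%, and 7 of 9 in two-cell M against two-cell, beside 36.1%. Of those 7, Cdc20 alone rose and the other 6 fell: Fzr1 by 7.08, Fbxo43 by 6.18, Fbxo5 by 6.10, Mad2l1 by 5.09, Ttk by 3.31 and Pttg1 by 2.35 on the log2 scale, where the median of all tested genes fell by 1.14. The low two-cell M libraries set several of these sizes. Fzr1 was at 0.0366, 0.01 and 12.9 FPKM there, against 13.5 to 53.6 in two-cell embryos, and Fbxo5 at 13.3, 0.0283 and 0.0191, against 10.5 to 17.1. In a fit of these groups alone 2 of the 7 were still called, Cdc20 and Pttg1, and Ttk was also lost without two-cell library A (log2 -1.23, limma adjusted p = 0.257) or two-cell M library C (-3.01, limma adjusted p = 0.0530). The call of Ttk was lost with 0.1 or 1 FPKM added as well. Quantile normalization ended the calls of Ttk (-0.19, limma adjusted p = 0.901), Fbxo43 (-1.92, limma adjusted p = 0.124) and Fbxo5 (-2.97, limma adjusted p = 0.0544).

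Markers moved in the non-polysome fraction too. From two-cell to two-cell M the oocyte markers went from between 286 and 414 FPKM to between 11.2 and 123 (3 of 6 called lower), the two-cell markers from between 212 and 419 to between 11.1 and 238 (2 of 3 tested called lower) and the haemoglobin genes from between 99.7 and 162 to between 0.04 and 52.6, with Hba-a1 called lower (log2 -5.41 ± 1.98, limma adjusted p = 0.0331). Granulosa markers summed to between 8.35 and 20.1 FPKM and to between 5.81 and 19.1, and both sperm markers were at the smallest value in all 6 libraries. Their part in the changes of the 10 genes in this fraction was not tested.

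Set against the lighter fractions, no gene with a test was called higher in polysomes at any stage. The counts called lower were 3 of 8 in GV (all tested genes, 4.96% called in either direction), 1 of 8 in zygotes (1.38%) and 2 of 8 in two-cell embryos (16.1%). At these stages 3, 3 and 4 of the 8 genes had an unadjusted p under 0.05. A fit of the zygote groups alone called Pttg1, Mad2l1, Bub1b and Fbxo43 lower (limma adjusted p = 0.0107, 0.00574, 0.0329 and 0.00366). Limma called 0 of 7 in MII (0.753%) and in zygote M (1.92%), with 0 under an unadjusted p of 0.05 in both, and 0 of 8 in two-cell M (14.8%), with 1 under it. Besides Pttg1 and Mad2l1, Fbxo43 was lower in the polysomes of GV oocytes, where the lighter fractions held 11.5, 17.0 and 4.67 FPKM (log2 -3.22 ± 0.88, limma adjusted p = 0.031). That call was lost without any 1 of 5 of the 6 GV libraries (log2 from -3.24 to -2.82, limma adjusted p from 0.0736 to 0.171) and held without non-polysome library C. In two-cell embryos Mad2l1 (log2 -2.58 ± 0.83, limma adjusted p = 0.0321) and Fbxo43 (-2.92 ± 0.88, limma adjusted p = 0.0238) stood lower in polysomes, and both were lost on rescaling to equal sums (limma adjusted p = 0.0948 and 0.0569). With the gradient as a replicate block Mad2l1 was not called (limma adjusted p = 0.0801). Fbxo43 was called with the block (limma adjusted p = 0.00569), and its ratios in the 3 gradients were 0.161, 0.0991 and 0.145. Its unpaired groups overlapped, and an unpaired fit of these groups alone did not call it (limma adjusted p = 0.281). Mad2l1 was also lost without non-polysome libraries A or B or polysome libraries B or C (log2 from -2.66 to -2.36, limma adjusted p from 0.0518 to 0.0990). Fbxo43 was lost without non-polysome library B or polysome libraries A or C (log2 from -2.68 to -1.79, limma adjusted p from 0.0789 to 0.179).

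The two-cell ratios of Fbxo5 ran from 0.0573 to 0.187, with 1.05, 0.603 and 2.42 FPKM in two-cell polysomes below 17.1, 10.5 and 12.9 in the lighter fractions. The groups did not overlap, yet the difference of -3.53 ± 1.59 was not called in the fit of all groups (limma adjusted p = 0.131). It was called in 4 of the other 8 settings, with the gradient as a replicate block (limma adjusted p = 0.0156), in a fit of these groups alone (limma adjusted p = 0.0342), with 1 FPKM added (-2.67, limma adjusted p = 0.0119) and after quantile normalization (-3.26, limma adjusted p = 0.0490).

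Whether the change in polysomes differed from that in the lighter fractions was also tested. In the oocyte limma called 0 of 7 genes beside 0.163% of all, and 2 had an unadjusted p under 0.05. In the zygote it called 0 of 7 beside 0.289%, with 0 under 0.05 unadjusted. In the two-cell embryo it called 0 of 8 beside 5.75%, and 1 had an unadjusted p under 0.05. Mad2l1 had differences of 3.85 ± 1.17 (limma adjusted p = 0.243, and 0.0124 in a fit of these groups alone) in the oocyte and 3.42 ± 1.17 (limma adjusted p = 0.0832, and 0.623 in a fit of these groups alone) in the two-cell embryo. Its ratios in two-cell M ran from 0.134 to 32.6.

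The meiotic M-phase was also set against the second mitosis in polysomes. In MII against two-cell M 7 of 7 genes with a test were called, all higher, beside 53.0% of all tested genes, whose median log2 fold change was 2.64. The 7 were Fbxo43 (7.82), Bub1b (7.07), Ttk (5.99), Fzr1 (4.58), Fbxo5 (4.48), Bub3 (3.97) and Mad2l1 (2.77). The first 3 sizes rest on two-cell M values near the smallest of the table. These ran from 0.01 to 0.0404 FPKM for Fbxo43, from 0.026 to 0.266 for Bub1b and from 0.0266 to 0.0673 for Ttk. Over all tested genes 4224 were called before quantile normalization and 3643 after it, when the median of all genes was 0.14. Of the 7 genes, 6 were called again after it. The call of Fbxo5 was lost then (2.73, limma adjusted p = 0.0508) and without two-cell M libraries B or C or MII library A (log2 from 2.94 to 4.13, limma adjusted p from 0.0569 to 0.152), and in a fit of these groups alone (limma adjusted p = 0.0838). Pttg1 was lower in MII (log2 -1.20 ± 0.37) and has no test here. Other genes differed too. The oocyte markers summed to between 922 and 1064 FPKM in MII polysomes and between 34.1 and 133 in two-cell M. Haemoglobin genes summed to 0.04 in MII and to between 24.4 and 42.5 FPKM in two-cell M. Between 9930 and 10185 genes exceeded 0.1 FPKM in MII, and between 6261 and 7550 in two-cell M. The part of these differences was not tested. In MII against zygote M 1 of 7 was called, Bub1b, beside 12.4%. A fit of these groups alone also called Bub3 (log2 1.06, limma adjusted p = 0.0231) and Ttk (2.82, limma adjusted p = 0.0171). Ttk was called in 4 of the other 8 settings.

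Between interphase stages 1 of 8 was called in GV against zygote, beside 5.61%, and 1 of 8 in GV against two-cell, beside 16.7%. The first was Pttg1, higher in GV polysomes (log2 1.54 ± 0.37, limma adjusted p = 0.00899), and it was lost without GV library B (1.07, limma adjusted p = 0.147) or zygote library C (1.13, limma adjusted p = 0.129) and in a fit of these groups alone (limma adjusted p = 0.0714). The other was Bub1b, higher in GV by 3.70 ± 1.25 (limma adjusted p = 0.04). This call was lost without two-cell library B (1.83, limma adjusted p = 0.344) or any GV library (limma adjusted p from 0.0707 to 0.116), with no minimum level (limma adjusted p = 0.0591) and in a fit of these groups alone (limma adjusted p = 0.127). Other genes were called in some of the other 8 settings only. Against zygote, Bub1b was higher in GV in 4 (log2 2.64, limma adjusted p = 0.00436 in the groups alone). Against two-cell, Fbxo5 was higher in GV in 4 (3.71), and Bub3 in 2 (2.65, limma adjusted p = 0.00265 in the groups alone). Mad2l1 was lower in GV than in two-cell in 1 (-1.36).

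The change from interphase to M-phase was also compared between the 3 cell cycles in polysomes, a comparison added after the values had been seen. The oocyte change runs from the prophase arrest to the arrest in the second meiotic metaphase, so the steps compared are not alike. The two-cell change was lower than that of the oocyte for Fbxo43 (-6.22 ± 1.25, limma adjusted p = 0.000542), Ttk (-6.07 ± 1.51, limma adjusted p = 0.00394), Fzr1 (-5.35 ± 1.85, limma adjusted p = 0.0353) and Mad2l1 (-4.13 ± 1.17, limma adjusted p = 0.0101), 4 of 7 genes beside 23.5% of all. It was lower than that of the zygote for Fbxo43 (-5.55 ± 1.25, limma adjusted p = 0.00186) and Mad2l1 (-3.66 ± 1.17, limma adjusted p = 0.0229), 2 of 7 beside 23.7%. Both comparisons share the two-cell libraries. Between zygote and oocyte limma called 0 of 7 with a test beside 9.51%, and 2 had an unadjusted p under 0.05. Fits of the groups compared alone called Bub1b, Bub3 and Ttk there (limma adjusted p = 0.00327, 0.00669 and 0.00670) and Fzr1 in two-cell less zygote (0.00105). The call of Fzr1 against the oocyte was lost with no minimum level and without any 1 of 8 of the 12 libraries (log2 from -5.53 to -4.77, limma adjusted p from 0.0509 to 0.0872). That of Mad2l1 against the zygote was lost without two-cell library A, two-cell M library C or zygote M library C (log2 from -3.40 to -2.97, limma adjusted p from 0.0545 to 0.0650). With 1 FPKM added the calls of Fbxo43 were lost in both (-1.84, limma adjusted p = 0.0571, against the oocyte and -1.39, limma adjusted p = 0.168, against the zygote).

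The rest of the pathway was also compared in polysomes. The share of all tested genes called there was 6.11% in the oocyte, 5.75% in the zygote and 36.3% in the two-cell embryo. Of 14 listed APC/C subunits 13 were tested, with 1 lower in MII against GV, 0 called in the zygote and 1 higher in the two-cell embryo, and medians of -0.03, -0.76 and -0.34 beside 0.18, -0.43 and -1.17 for all tested genes. The first was the RING subunit Anapc11, at 21.2 ± 12.8 FPKM in GV and 1.88 ± 0.267 in MII polysomes, where the GV libraries ranged from 6.92 to 31.8 (log2 -3.24 ± 0.52, limma adjusted p = 0.000113), and the other Anapc7 (log2 3.61 ± 1.12, limma adjusted p = 0.0128). Of the 3 ubiquitin-conjugating enzymes of the complex 2 were tested. Ube2s, which extends the ubiquitin chains, fell from 31.7 ± 9.25 FPKM in GV to 4.43 ± 0.131 in MII (log2 -2.80 ± 0.40, limma adjusted p = 1.96e-05), and Ube2c, which starts them, fell in the two-cell embryo (log2 -1.49 ± 0.57, limma adjusted p = 0.0407). In the non-polysome fraction Ube2s was also lower in MII (log2 -1.77, limma adjusted p = 0.00259) and Anapc7 higher in two-cell M (4.22, limma adjusted p = 0.00393). Neither Anapc11 in MII (-1.03, limma adjusted p = 0.191) nor Ube2c in two-cell M (-0.27, limma adjusted p = 0.764) was called there.

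Of 8 other checkpoint genes 3 were tested, and Mad2l1bp (p31comet), whose protein takes Mad2 off Cdc20, rose in MII polysomes (log2 3.03 ± 0.93, limma adjusted p = 0.0484), while 0 of the 3 were called in the zygote and two-cell embryo. Of 5 genes for separase, its guardians and cohesin 3 were tested and 0 were called in polysomes in any of the 3 comparisons. Of 8 other APC/C substrates, all tested, Ccnb1 (cyclin B1) rose in MII (log2 1.71 ± 0.42, limma adjusted p = 0.0115), and Ccna2 (cyclin A2) rose in zygote M (1.52 ± 0.45, limma adjusted p = 0.0413) and two-cell M (1.31 ± 0.45, limma adjusted p = 0.0242). In the non-polysome fraction neither Ccnb1 (-0.89, limma adjusted p = 0.164) nor Mad2l1bp (1.07, limma adjusted p = 0.478) was called in MII. Securin mRNA was lower in MII than in GV polysomes without overlap, but its MII values chose the gene and carry no test. It was lower in MII in the non-polysome fraction too (log2 -3.68).

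**Figure D4:**
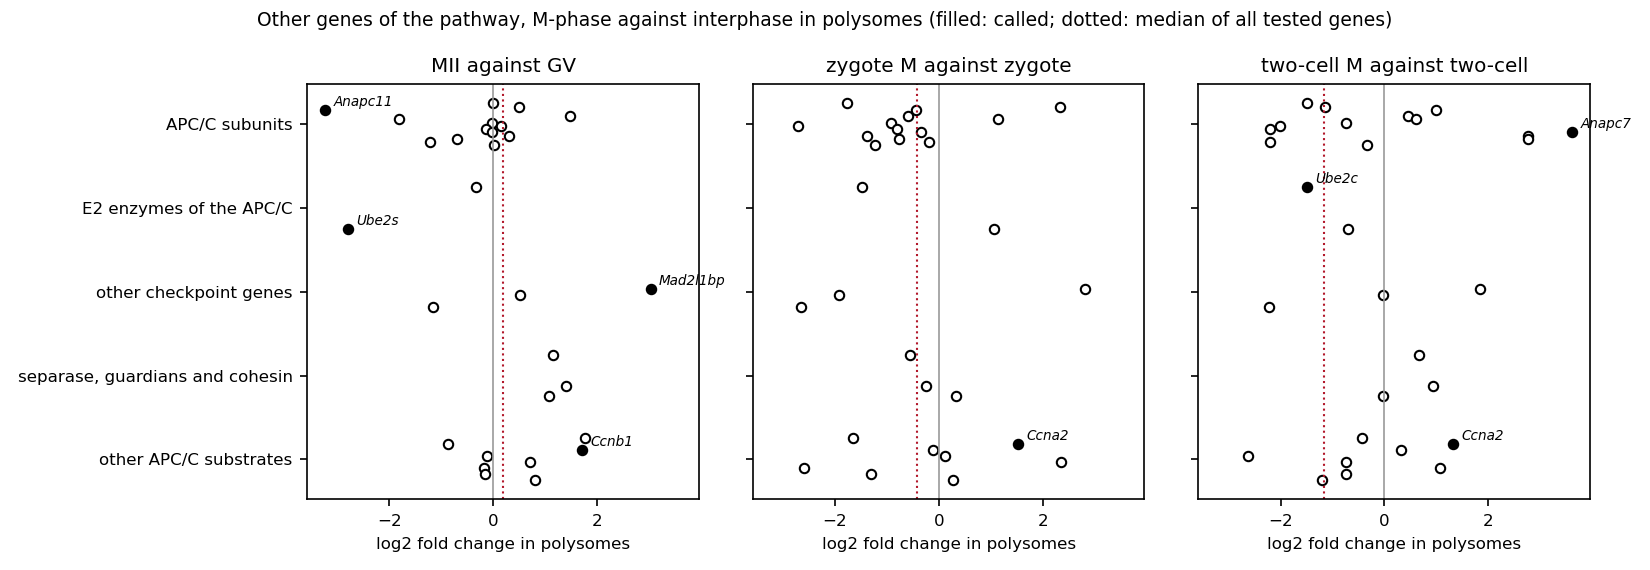
Log2 fold change of M-phase against interphase in polysomes for the tested genes of 5 pathway lists, with called genes filled and named and a dotted line at the median of all tested genes. The called genes include Anapc11 and Ube2s lower and Mad2l1bp and Ccnb1 higher in MII.

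The genes most like Cdc20 over the 12 group means of log2 FPKM, among 2285 protein-coding genes that reach 10 FPKM in a group, were Nip7 (Pearson r = 0.852), Magoh (0.830), Cenpa (0.792), Nr1h2 (0.752) and Omt2a (0.738). Those most like Pttg1 were Gng5 (0.915), Cops9 (0.900), Swi5 (0.900), Higd2a (0.897) and Trmt112 (0.881). The 12 points share the libraries and their scaling, and the values are a description.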

How the data were processed

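Per the labels and the study's methods, the authors sequenced polysome and non-polysome RNA of mouse oocytes and embryos and deposited 1 table of FPKM per gene and library. The submitters' processing notes name Trim Galore 0.4.1, STAR 2.5.3a, Partek and GRCm38. Of 38 labelled samples 36 had a column, and 2 zygote samples were not analysed here. Raw depth is unknown, so no counting interval is given.

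Log2 FPKM, with nothing added above the smallest value of 0.01, were fitted with limma 3.58.1 in R 4.3.3 (12 group means, eBayes with trend), in place of the authors' Partek algorithm. Genes needed a geometric mean of at least 0.1 FPKM. A call needed a Benjamini-Hochberg adjusted p under 0.05 over all 7967 genes and a fold beyond 2, the study's thresholds. The p-values measure the spread between libraries within groups, pooled for each gene over all 12 groups and not over the compared groups only. For Bub3 the SD of log2 FPKM was 0.073 in zygote and 0.446 in zygote M polysomes. It was 5.42 in the non-polysome libraries of two-cell M. A fit of the compared groups alone uses the spread of those groups. Libraries of the same stage and letter were read as the fractions of 1 gradient, and their deviations from group means correlated by 0.0756 on average, with 6 of 18 above 0.1. The fit was tested on simulated data, and the outcome is not given here.

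All 10 genes are named. From pathway lists, genes called in polysomes in M-phase against interphase are named, at most 4 per list. The genes and lists were chosen with earlier results of these data known. Alternatives were 0.1 or 1 FPKM added, no minimum level, an arithmetic mean minimum of 1 FPKM, quantile normalization, rescaling to equal sums, the compared groups alone, a replicate block and each library left out.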

Additional observations from a re-analysis of the deposited data

Results flagged for a closer look

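In polysomes the change from interphase to M-phase differed between the two-cell embryo and the oocyte for 4 of 7 genes with a test, beside 23.5% of all tested genes. The two-cell change less the oocyte change was -5.35 for Fzr1 (limma adjusted p = 0.0353), -4.13 for Mad2l1 (limma adjusted p = 0.0101), -6.07 for Ttk (limma adjusted p = 0.00394) and -6.22 for Fbxo43 (limma adjusted p = 0.000542). Against the zygote, where 23.7% of all were called, 2 of 7 genes differed, by -3.66 for Mad2l1 (limma adjusted p = 0.0229) and -5.55 for Fbxo43 (limma adjusted p = 0.00186). The call of Fzr1 was lost without any 1 of 8 of the 12 libraries (log2 from -5.53 to -4.77) and with no minimum level, both calls of Fbxo43 with 1 FPKM added, and that of Mad2l1 against the zygote without any 1 of 3 libraries (log2 from -3.40 to -2.97). The median over all tested genes was -1.41 against the oocyte and -0.86 against the zygote. The part of nocodazole, which the embryos had received and the oocytes had not, was not tested.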

How the results depend on the processing

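The unknown read depth, the floor of 0.01 FPKM and 3 libraries per group limit the low genes, chiefly Bub1b, Ttk, Fbxo5 and Fbxo43, most of all in the two-cell embryo. Without 1 library at a time, the calls on these genes numbered from 4 to 5 for M-phase against interphase in polysomes (4 with all libraries), from 9 to 12 in the non-polysome fraction (11), from 4 to 7 for polysome against non-polysome (6), from 0 to 2 for the difference between fractions (0), from 8 to 10 between meiotic and mitotic stages (10) and from 4 to 6 between cell cycles (6). In fits of the compared groups alone these became 13, 6, 9, 1, 12 and 10, and after quantile normalization 4, 7, 7, 1, 13 and 9. The tests numbered 22, 27, 46, 22, 30 and 21. Calls over all genes also moved after quantile normalization, from 487 to 1545 in MII against GV in polysomes. They went from 2878 to 2021 in two-cell M against two-cell in the non-polysome fraction. For the fits of the compared groups alone no share of all genes is given, so their counts cannot be set against one. With 1 FPKM added the difference between fractions gave 2 calls. The rescaling to equal sums and the comparison between cell cycles were added after the data had been seen.

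With the replicate block, the letter across stages and the gradient between fractions, the counts were 4, 10, 6, 0, 10 and 6. It ended the calls of Pttg1 in non-polysome zygote M against zygote (1.21, limma adjusted p = 0.0501) and of Mad2l1 in two-cell polysomes against the non-polysome fraction (limma adjusted p = 0.0801), newly called Fbxo5 there (limma adjusted p = 0.0156), and changed no other call among these genes. Across stages the same letter gave mean correlations of deviations of 0.0413 (non-polysome) and 0.00102 (polysome), and letters were not taken to pair stages.

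Of 2610 values recomputed over 168 comparisons of single genes, 2383 kept their direction and side of the threshold, 80 newly passed it, 73 no longer passed it and 74, in 40 comparisons, changed direction. None of the 74 belonged to a difference called with all libraries, and 1 was itself called. Those in the 83 comparisons that were called in some fit or are given above are these 18. Non-polysome Bub3 in two-cell M against two-cell (-0.33) became 0.43 with 0.1 FPKM added, 0.66 with 1 FPKM added, 1.03 after quantile normalization, 1.27 without two-cell library A and 2.78 without two-cell M library A (limma adjusted p = 0.00875), and ranged down to -2.16 without 1 library. Fbxo5 in two-cell M polysomes against the non-polysome fraction (0.88) became -0.34 with 1 FPKM added, -0.69 after quantile normalization, -0.51 and -0.79 without non-polysome libraries B and C and -1.0 without polysome library A, and ranged up to 3.93 without 1 library. The two-cell difference between fractions became -0.77 for Fzr1 with 1 FPKM added, and 0.72 and 0.16 for Bub3 without two-cell M non-polysome libraries B and C, against -4.22 without library A. Bub1b in two-cell M against two-cell became 0.28 (polysomes) and 0.69 (non-polysome) after quantile normalization. Fzr1 in zygote M against zygote polysomes (-0.06) became 0.15 with the replicate block and 0.076 without zygote M library A, down to -0.25 without 1 library, and the two-cell difference between fractions of Pttg1 (0.19) became -0.19 without two-cell M polysome library C, up to 0.44 without 1 library. The cause was not tested.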
